A study of Caenorhabditis elegans with 2 samples.

Results

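The regions described here are places in the worm genome where the tagged zinc finger protein ZTF-1 gave a strong signal in chromatin immunoprecipitation followed by sequencing (ChIP-seq) and where the centre of the signal fell inside protein-coding sequence. They were selected on the deposited signal of the ranked list that compared both replicates. Entries with a signal of 50 or more were kept, overlapping entries were merged, and the summit of the entry with the highest signal gave the position. A region was taken when its summit lay in the coding sequence of any protein-coding transcript. This gave 3005 regions of the 7175 strong regions, and the whole ranked list merged into 43349 regions.

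The worms were Caenorhabditis elegans strain OP207. This strain carries the integrated fosmid transgene wgIs207, in which ztf-1 is fused to 2xTY1, eGFP and 3xFLAG tags, beside an unc-119 marker. The tagged protein was therefore made from an added copy of the gene. Whole L2 larvae were collected at 28.5 hours, in cultures synchronised at the L1 stage by starvation that followed bleaching, so signals from all tissues were mixed. Sonication gave chromatin fragments of 200 to 800 bp, and an antibody against GFP recovered the tagged protein with its DNA. There was 1 group with 2 biological replicates and no second condition. The labels point to a separate control experiment, not analysed here.

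ZTF-1 belongs to the C2H2 zinc finger proteins, a large class of transcription factors in which small zinc-bound folds read short stretches of DNA. Such factors are usually looked for at promoters and enhancers, which in the compact worm genome lie close upstream of genes or in introns. Coding exons are richer in G and C than worm introns and intergenic DNA.

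The regions of highest signal are shown first as sequence, to let the base content of these exons be read directly. Each stretch is 61 bases centred on the summit, read on the strand of the host gene from the RefSeq copy of WBcel235 (ce11), 5′ to 3′, and all 61 bases were coding in each. Capitals mark CG pairs.
bli-6, chrIV:6377651-6377711, plus strand: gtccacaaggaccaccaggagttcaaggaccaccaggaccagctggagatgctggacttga
egl-8, chrV:36571-36631, plus strand: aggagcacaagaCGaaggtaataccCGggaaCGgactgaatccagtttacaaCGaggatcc
Y62E10A.13, chrIV:13389443-13389503, minus strand: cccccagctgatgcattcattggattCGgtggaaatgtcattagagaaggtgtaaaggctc
col-171, chrX:6334732-6334792, plus strand: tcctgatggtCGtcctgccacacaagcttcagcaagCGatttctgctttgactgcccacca
cat-2, chrII:259367-259427, plus strand: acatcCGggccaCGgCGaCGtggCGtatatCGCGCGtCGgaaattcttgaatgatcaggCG
scc-2, chrII:255008-255068, minus strand: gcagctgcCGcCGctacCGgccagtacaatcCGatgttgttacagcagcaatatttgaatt
cup-14, chrII:13856856-13856916, minus strand: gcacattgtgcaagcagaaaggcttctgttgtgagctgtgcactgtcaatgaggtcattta
fox-1, chrX:2447378-2447438, minus strand: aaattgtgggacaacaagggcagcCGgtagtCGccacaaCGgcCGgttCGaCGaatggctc

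These 8 stretches had no common word visible in the letters. Their CG pairs ranged from 0 in bli-6 and cup-14 to 10 in cat-2. Their GC content ranged from 45.9% in cup-14 to 59.0% in cat-2 and fox-1.

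Among the 24 gene lists described below, that of collagens had the most strong coding regions. Most of its genes encode cuticle collagens, the proteins of the worm's outer coat. The windows of some of these regions showed the collagen repeat. In the next sequences capitals mark in-frame glycine codons (GG followed by any base), which in a collagen alternate with pairs of other codons.
bli-6, chrIV:6377651-6377711, plus strand: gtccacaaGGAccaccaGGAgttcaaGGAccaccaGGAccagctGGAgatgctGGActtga
col-171, chrX:6334732-6334792, plus strand: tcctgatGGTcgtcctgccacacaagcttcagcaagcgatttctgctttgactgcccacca
lon-3, chrV:12198089-12198149, minus strand: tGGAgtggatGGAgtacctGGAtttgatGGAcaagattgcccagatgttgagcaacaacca
col-69, chrII:304588-304648, minus strand: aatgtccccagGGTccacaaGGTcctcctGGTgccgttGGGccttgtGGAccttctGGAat

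The bli-6 and col-69 windows held 6 glycine codons each and lon-3 held 4. Of the 59 strong coding regions in collagen genes, 16 kept this glycine spacing across the whole window. Summits in collagen genes therefore lay both in unbroken stretches of the repeat and elsewhere, as in col-171, whose window held 1 glycine codon.

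The replicates' own ranked lists differed in length and level before any selection. Replicate 1 had 49381 entries, of which 428 reached a signal of 50, and replicate 2 had 36348 entries, of which 118 did. No read counts were in the files, so depth is unknown and the counting error of a single signal cannot be given. The signal has no stated unit. The replicate lists were made separately, so a level in one is not on a shown common scale with a level in the other. Nearly all entries had a fixed width, 540 bp in the list that chose the regions, and 99.9989% of its summits were the midpoint of the entry. A summit is therefore the middle of an interval. How that middle was placed is not given, so a summit is not read as a base of contact.

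The signal of the 3005 regions ran from 50.004 to 120.1 with a median of 58.7, values that the selection used and that are given as a description. In the 4170 strong regions outside coding sequence it ran from 50.006 to 220.7 with a median of 58.7. The word strong refers to this ranking alone. The lowest deposited q-value of a strong coding region was 0.0598, in Y62E10A.13, and the median was 0.870. None of the 3005 regions had a q-value of 0.05 or less, which allows a share of up to 0.0998% by a limit of 3 regions, with an exact upper limit of 0.123%, against 26 of the 4170 strong regions outside coding sequence.

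The share of regions with a coding summit changed with signal and did so in both directions. Coding bases made up 24.6% of the genome. The coding share of ranked regions was 27.1% (95% exact Clopper-Pearson interval 25.4 to 28.8) below a signal of 10, 38.9% (37.7 to 40.02) from 40 to 50, and 44.5% (41.0 to 48.1) from 70 to 80. It was lower beyond that, at 36.5% (31.8 to 41.4) from 80 to 100 and 22.5% (13.9 to 33.2), or 18 of 80 regions, from 100 to 130. None of the 25 regions at 130 or above had a coding summit, which allows a share of up to 12% by a limit of 3 regions, with an exact upper limit of 13.7%. These intervals cover counting error only. Over all strong regions 41.9% (40.7 to 43.0) were coding, against 33.5% (33.0 to 34.0) of ranked regions under 50. The shares of strong and weaker regions were 27.7% and 29.4% for introns, 4% and 4.43% for untranslated regions, and 26.4% and 32.7% outside protein-coding genes.

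**Figure D1:**
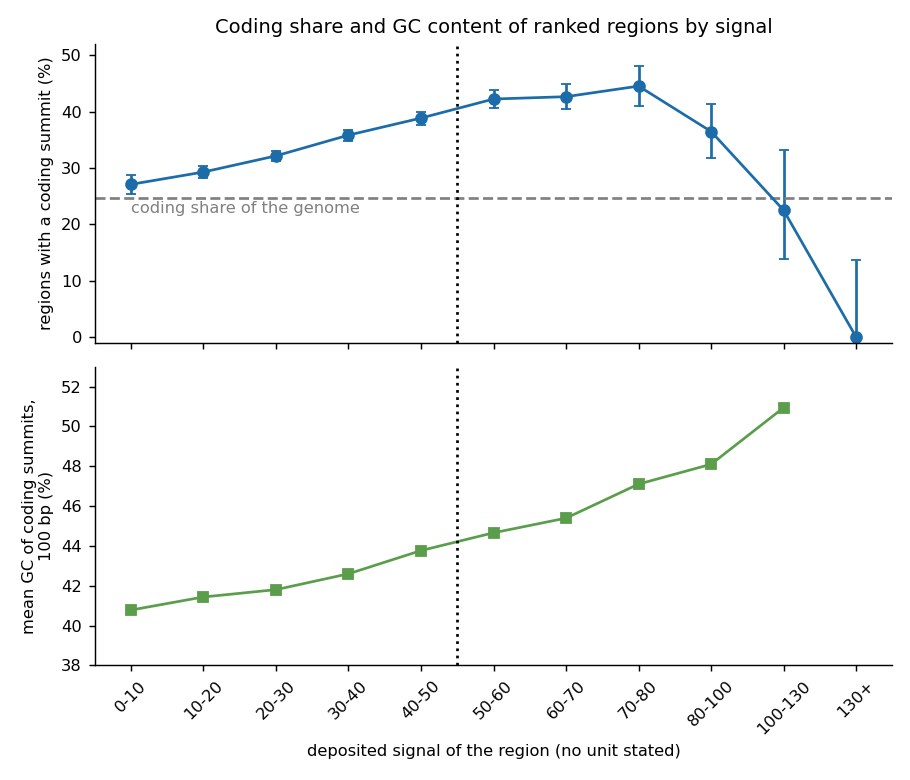
Upper panel, share of merged ranked regions with a coding summit in each range of deposited signal, with 95% exact Clopper-Pearson intervals, and the coding share of the genome as a dashed line. Lower panel, mean GC content in 100 bp around the coding summits. The dotted line marks the signal of 50 that chose the regions. The coding share rises to 44.5% at 70 to 80 and is 0 of 25 regions at 130 and above, while the GC content of coding summits rises from 40.8% to 50.9%.

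The first of the strong coding regions by signal lay in bli-6, a cuticle collagen gene. Its deposited signal was 120.1, with 54.98 in replicate 1 and 63.1 in replicate 2, and its IDR was 0.000902. IDR, the irreproducible discovery rate, is low where an entry ranks high in both lists compared. The next was in egl-8, which encodes a phospholipase C beta, with a signal of 117.6 from 64.2 in replicate 1 and 49.1 in replicate 2. By signal, their entries were at places 195 and 31 for bli-6 and 69 and 137 for egl-8 among all 49381 and 36348 entries of the replicate 1 and replicate 2 lists.

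Y62E10A.13 followed with a signal of 111.8 and replicate values of 70.4 and 34.5, at places 36 and 1747 of the replicate lists. col-171, another cuticle collagen, had 111.6, with an even 50.8 and 52.5. The summits in cat-2, the tyrosine hydroxylase that makes dopamine, and in scc-2, which loads cohesin onto chromosomes, lay 4359 bp apart on chromosome II. cat-2 had a signal of 110.4 with 59.1 and 48.98 in the replicates, and scc-2 had 110.2 with 66.8 and 52.7. These neighbours were therefore high in both replicates.

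The remaining hosts among the 20 strongest ranged from 109.3 down to 99.8. They included pde-6, a cyclic nucleotide phosphodiesterase, fox-1, an RNA-binding protein and X signal element of sex determination, and tir-1, the TIR-domain adaptor of innate immunity. They also included the purine nucleoside phosphorylase gene pnp-1, the Mediator subunit gene mdt-26, the sperm gene ssq-1, and rsy-1, a regulator of synapse formation. mxl-3 encodes a basic helix-loop-helix factor of fat metabolism, and its region had a signal of 102.6 with 59.2 and 48.1 in the replicates. The others were cup-14, Y18D10A.4, lelo-2, R02F2.1, C17F4.7 and Y71H2AM.6.

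A strong signal in the compared list did not always mean a strong signal in each replicate. R02F2.1 had a signal of 105.4, but its entry was at place 28 of the replicate 1 list at 74.4 and at place 12220 of the replicate 2 list at 20.9, and its IDR was 0.0787. Y18D10A.4 was higher in replicate 2, with 46.3 in replicate 1 at place 802 and 69.0 in replicate 2 at place 18. Its IDR was 0.00225, so unlike R02F2.1 it ranked high in both lists. Of the 3005 regions, 5 had a signal of 50 or more in both replicates, and they lay in bli-6, col-171, scc-2, lelo-2 and rsy-1. The same count was not made for strong regions outside coding sequence.

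Across the regions, 84.5% overlapped a ranked entry of replicate 1, 76.7% one of replicate 2, and 64.2% (62.5 to 65.9), or 1930 regions, one of each. In strong regions outside coding sequence the shares for replicate 1 and replicate 2 were 85.5% and 77.6%. Of the strong coding regions 91, or 3.03%, overlapped no entry of either replicate. That share was 2.30% in strong regions outside coding sequence and 37.2% in weaker coding regions. The share with an entry of both was 65.3% in strong regions outside coding sequence and 19.0% in weaker coding regions. The weaker merged regions were nevertheless wider, with a median of 756 bp against 540 bp. In the 1930 regions the signal ran from 2.31 to 74.4 with a median of 34.3 in replicate 1, and from 6.32 to 69.0 with a median of 28.5 in replicate 2. Replicate 1 had the higher value in 1316 of them, or 68.2%. The log2 ratio of replicate 1 to replicate 2 had a median of 0.26 and an SD of 0.63 over regions, which share both libraries and are not replicates.

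In the 1930 regions with an entry of both replicates, the deposited signal of the compared list was close to the sum of the replicates. The median ratio was 0.998 (25th to 75th percentile 0.943 to 1.05). For these regions the selection at 50 therefore acted in effect on that sum, and the shape of the relation between their replicates follows from it. The other regions lack a value in at least 1 replicate, so the ratio was not computed for them. At the same signal of 50 within a single replicate, replicate 1 gave 152 coding regions among 416 strong ones and replicate 2 gave 23 among 117. Of these, 5 overlapped between the replicates, which is 3.29% of the first list and 21.7% of the second. The same overlap was not counted over all 416 and 117 strong regions, so it is not read as a trait of coding regions. Given the sum, 50 in both replicates is a much higher cut than 50 in the compared list. There, 18 coding regions had a signal from 100 to 130 and none had more.

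**Figure D2:**
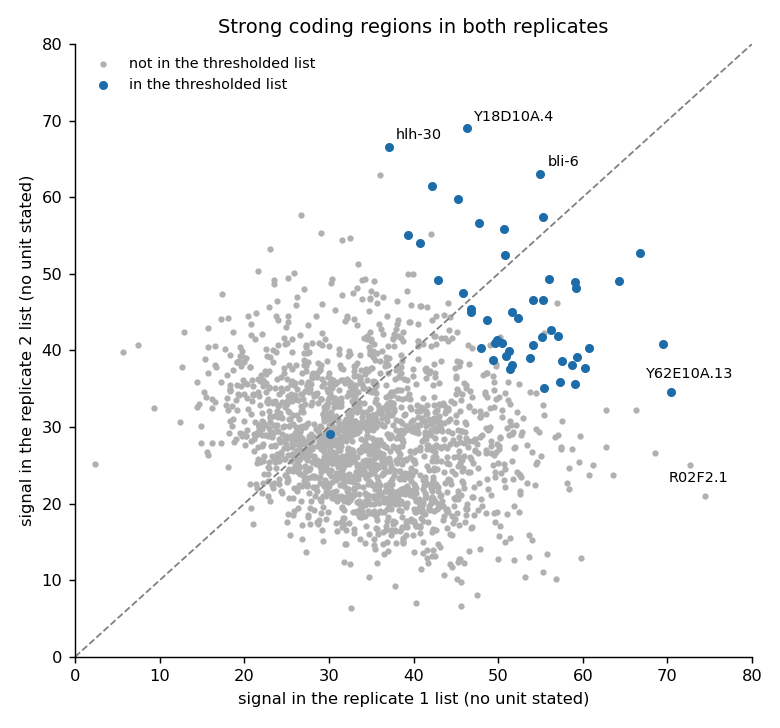
Signal of each of the 1930 strong coding regions that overlapped a ranked entry of both replicates, in the replicate 1 list and the replicate 2 list, in the deposited unit. The dashed line is equality, and blue points are regions of the replicate-compared thresholded list. Blue points lie at the upper right edge except that of W02H5.2 at 30.1 and 29.1. R02F2.1 lies far to the right with 74.4 and 20.9, and the stronger region in hlh-30 lies high with 37.1 and 66.6.

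In the thresholded list, which held entries with an IDR of 0.01 or less, 51 of the 3005 regions appeared, or 1.70% (1.27 to 2.23). The share was 0.494% over all ranked regions and 3.96% in strong regions outside coding sequence. The IDR comes from the same list as the signal that chose the regions, so nothing is read from these differences. In 48 of the 51 the strongest entry itself had an IDR of 0.01 or less, and pyc-1, rab-11.1 and W02H5.2, named after their values were seen, were counted through an overlapping entry. In the thresholded list of the pooled comparison 38 regions appeared, or 1.26%. That list held 0.36% of all ranked regions and 2.83% of strong regions outside coding sequence. The thresholded list of replicate 1 held none of the 3005 regions, against 0.0415% of ranked regions and 0.432% of strong regions outside coding sequence. That of replicate 2 held 1, or 0.0333%, against 0.0392% and 0.384%.

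That single region lay in hlh-30, which encodes the worm counterpart of the autophagy and lysosome regulator TFEB. Its summit was at position 4016640 of chromosome IV. It had a signal of 97.0, with 37.1 at place 3254 of the replicate 1 list and 66.6 at place 22 of the replicate 2 list. It stood much higher in the order of replicate 2 than in that of replicate 1. Another strong region in hlh-30, at position 4027983, had a signal of 94.4 and was high in both replicates. It had 56.9 at place 151 in replicate 1 and 46.1 at place 234 in replicate 2. Its IDR was 0.0215, and it was not in the replicate-compared thresholded list. Among the 51 regions were also those in fasn-1, the fatty acid synthase gene, at 98.6, in icl-1, the gene of a glyoxylate cycle enzyme, at 76.7, and in vab-10, a spectraplakin of the epidermis, at 82.9. pck-1 and pyc-1, which encode the gluconeogenic enzymes phosphoenolpyruvate carboxykinase and pyruvate carboxylase, had 90.8 and 90.1, and were named after their values were seen.

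The selected regions ended at the threshold without a gap in signal. Just inside were Y54F10BM.9 at 50.004, F55B11.5 at 50.009 and F56A11.4 at 50.010. Just outside were coding regions in iglr-3 at 49.992, mrp-6 at 49.990 and F46G11.2 at 49.989.

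The GC content in 100 bp around the summits was 45.4% ± 7.197 (SD over 3005 regions). It was 42.3% ± 6.85 in the 12135 weaker coding regions and 40.9% ± 8.89 in strong regions outside coding sequence. In DNA 300 to 400 bp away it was 39.5%, 37.1% and 38.4% for the same groups. The coding sequence of the hosts had a mean of 45.3% for strong regions and 43.2% for weaker ones, against 42.9% over all genes. The window was richer in GC than its own host's coding sequence in 49.3% (47.5 to 51.1) of strong regions and in 44.4% (43.6 to 45.3) of weaker ones. Within coding summits the mean GC content was higher in each successive range of signal, from 40.8% below 10 to 50.9% from 100 to 130. CG pairs averaged 4.59 per 100 bp in strong coding regions, 4.02 in weaker ones and 3.96 in strong regions outside coding sequence, and their ratio to the number that base content alone would give was 0.910, 0.916 and 0.966.

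The number of strong coding regions per coding length followed the GC content of the gene. Genes with coding GC under 40% had 5.00 strong regions per 100 kb of coding sequence, those at 40 to 45% had 10.7, those at 45 to 50% had 19.3, and those at 50% or more had 28.6. For the weaker coding regions the same classes had 42.5, 51.1, 53.8 and 52.5. It also rose with exon length, from 7.13 per 100 kb in coding exons under 150 bp to 19.4 in exons of 600 to 1200 bp, with 16.8 in longer ones. The weaker regions also rose and then fell, from 43.6 in exons under 150 bp to 56.4 in exons of 300 to 600 bp and 43.1 in the longest class. The part of GC content or exon length in the signal was not tested.

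**Figure D3:**
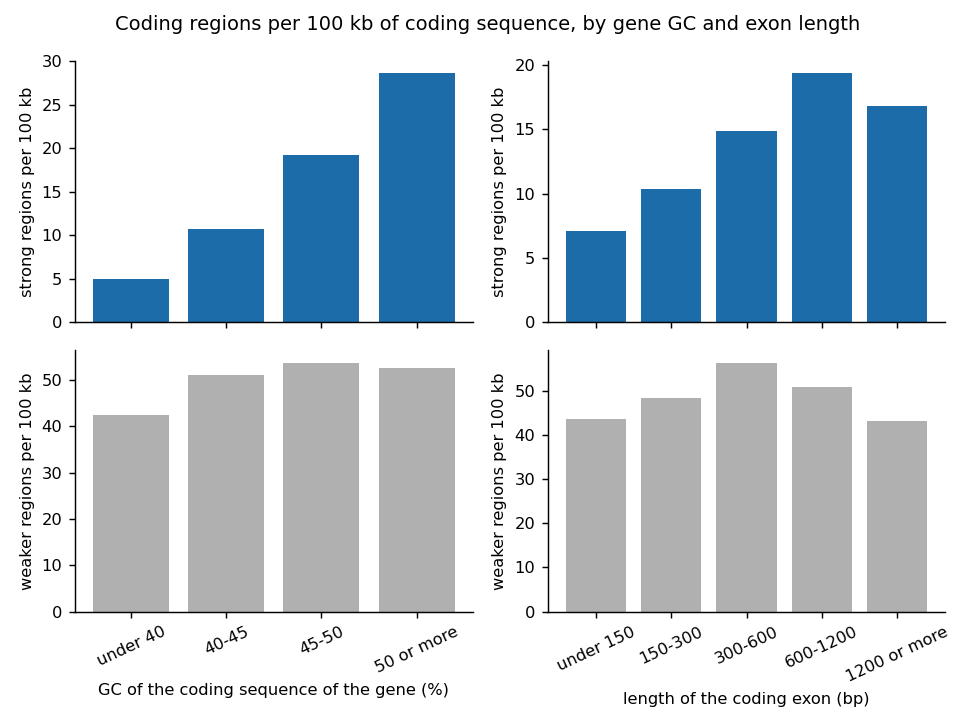
Strong coding regions (upper panels) and weaker coding regions (lower panels) per 100 kb of coding sequence, by the GC content of the gene's coding sequence (left) and by the length of the coding exon (right), with the longest transcript of each gene as the model. The density of strong regions rises from 5.00 to 28.6 across the GC classes, while that of weaker regions lies between 42.5 and 53.8.

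Within genes the summits lay mostly in inner exons and showed little preference for either end. Of the regions, 10.2% were in the first coding exon, 75.3% in an inner one, 13.4% in the last and 1.06% in genes with 1 coding exon. Coding bases fell into these classes at 10.9%, 72.9%, 15.3% and 1.01%, and weaker coding regions at 11.2%, 74.0%, 13.8% and 0.997%. Divided into 5 equal parts of the coding sequence from start to stop, the regions were 18.7%, 20.97%, 21.6%, 22.1% and 16.7%. Summits within 500 bp of a protein-coding gene start made up 19.9% (18.5 to 21.3), beside 21.5% of weaker coding regions and 20.6% of strong regions outside coding sequence. The median distance to the nearest such start was 1404 bp, and 50.1% of hosts were on the plus strand.

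The host exons were long for worm exons. Their median length was 347 bp in strong coding regions, 270 bp in weaker ones and 145 bp over all coding exons, although any coding summit falls more often in a long exon than in a short one. An exon of at least 540 bp, the width of a ranked entry, held 30.7% of the strong regions and 20.6% of the weaker ones. In 15.04% (13.8 to 16.4) of strong regions every base of the entry was coding, against 7.81% (7.34 to 8.30) of weaker ones.

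By role of the host, the lists with the most strong regions per coding length were ribosomal proteins, collagens, translation factors, the proteasome and chaperones, while tRNA synthetases, which also serve protein synthesis, were below the overall density. The overall density was 12.3 per 100 kb of coding sequence. Ribosomal protein genes had 13 regions in 13 of 81 genes, or 32.9 per 100 kb. Collagen genes had 59 regions in 58 of 178 genes, or 32.2 per 100 kb. Translation factors had 11 regions (28.0 per 100 kb), the proteasome 10 (27.2) and heat shock and chaperone genes 9 (21.97). The weaker coding regions in these 5 lists stood at 45.9 to 57.1 per 100 kb, beside 49.5 over all genes, so the weaker regions did not show the same spread.

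Among the ribosomal protein genes, which encode the structural proteins of the ribosome, rpl-16 had a signal of 74.1, with 48.5 in replicate 1 and 27.05 in replicate 2. rps-6 had 71.4 with 35.3 and 40.9, and rps-16 had 70.3 with 36.3 and 31.1. rps-11 had 74.2 and an entry in replicate 1 only, at 56.1. Of these 4, 3 were thus seen in both replicates, but of all 13 only 7 were, and none of the 13 was in the thresholded list. Of the translation factors, eef-2, which moves the ribosome along the message, had 95.6 with 42.9 and 49.2 and was in the thresholded list. eef-1A.1, which brings aminoacyl-tRNA to the ribosome, had 83.1 with 51.1 and 35.9. Among the chaperones cct-4, a subunit of the chaperonin that folds actin and tubulin, had 83.0 with 50.1 and 27.2, and hsp-1, a cytosolic Hsp70, had 74.1 with 50.4 and 32.2.

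Of the collagen regions 4 were in the thresholded list, those of bli-6, col-171, lon-3 and col-50. lon-3, a cuticle collagen that sets body length, had 95.7 with 57.6 in replicate 1 and 38.6 in replicate 2. col-50 had 95.2 with 59.1 and 35.6. The lowest replicate value among these 4 regions was 35.6. The mean coding GC was 54.7% for the collagen list and 53.5% for ribosomal proteins, near the class of 50% or more in which all genes together had 28.6 regions per 100 kb. It was 46.8% for translation factors, 47.4% for the proteasome and 44.5% for chaperones, and all genes together had 19.3 per 100 kb at 45 to 50% and 10.7 at 40 to 45%. Collagens are a family with similar members, and the treatment of reads that match several genes is not given in the sources used here.

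Only regions with a ranked entry in both replicates gave the same picture for most of these lists. Their overall density was 7.88 per 100 kb, with 24.0 for collagens, 17.8 for translation factors, 17.7 for ribosomal proteins and 14.6 for chaperones. The proteasome had 8.16, since 3 of its 10 regions had an entry in both replicates, so its place among the higher lists rested on regions seen in 1 replicate or in neither.

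At the other end were large families of sensory and variable genes. Chemoreceptor genes, which let worms smell and taste, had 51 regions in 50 of 1172 genes, or 4.33 per 100 kb. F-box genes, which mark proteins for degradation, had 15 regions (4.71 per 100 kb), MATH-BTB genes 4 (4.09) and nuclear receptor genes 26 (7.90). Their weaker coding regions stood at 47.8 to 55.2 per 100 kb, close to the overall 49.5. The mean coding GC of these lists was 37.5%, 38.5%, 39.95% and 40.9% in the same order. Exceptions with high signal were sri-62, a chemoreceptor gene, at 86.3 with 52.2 and 32.0 in the replicates, and nhr-198, a nuclear receptor gene, at 85.1 with 45.6 and 33.6.

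Histone, vitellogenin and major sperm protein genes had no strong coding region in 81, 6 and 31 genes, and weaker regions at 25.4, 41.3 and 34.8 per 100 kb. These families hold near-identical copies, so a read from one copy may match several. Their coding GC was high, at 52.9%, 48.0% and 51.3%. All genes together had 28.6 strong regions per 100 kb at 50% or more and 19.3 at 45 to 50%. The lists hold only 31.5, 29.1 and 11.5 kb of coding sequence, and no limit was computed for their counts of 0. A departure from the relation of density to GC content was not tested.

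**Figure D4:**
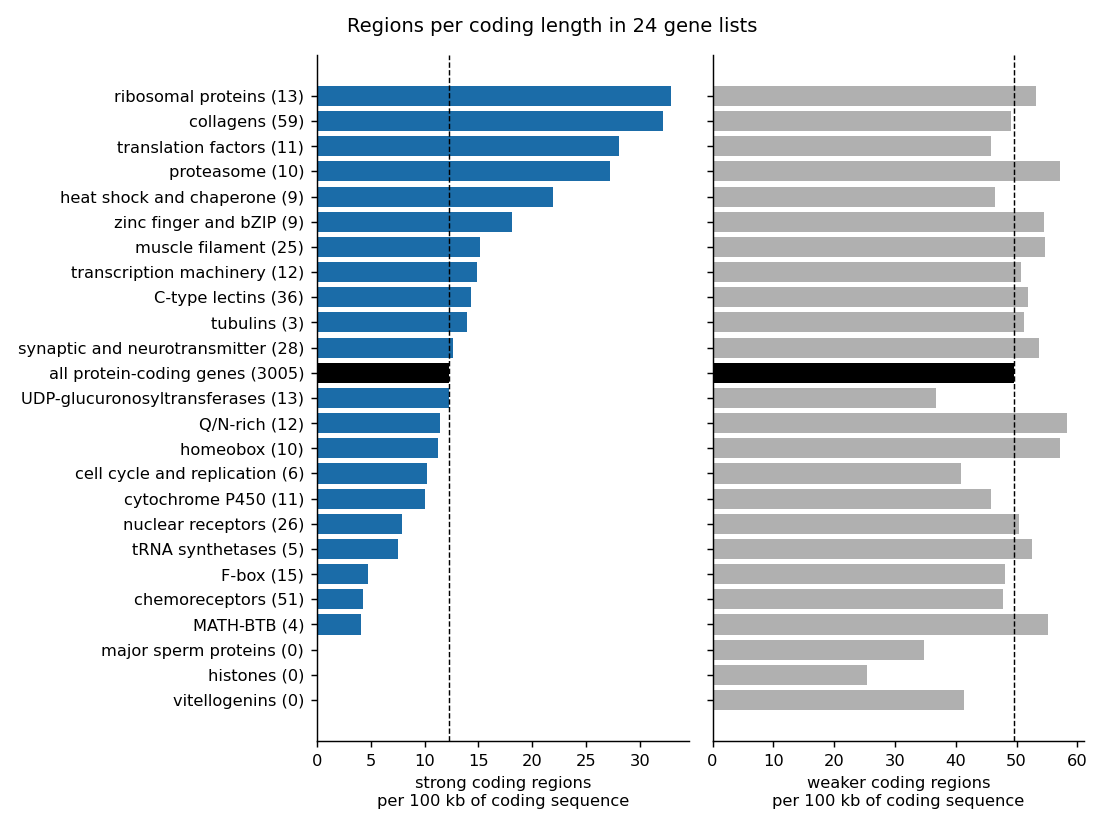
Strong coding regions (left) and weaker coding regions (right) per 100 kb of coding sequence in 24 gene lists, with the number of strong regions in brackets and all protein-coding genes in black and as a dashed line. Strong regions range from 0 in 3 multicopy lists to 32.9 in ribosomal protein genes, around 12.3 over all genes, and the weaker regions of most lists lie near 49.5.

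The other lists lay between 7.51 and 18.2 per 100 kb. The muscle filament list, which also holds muscle genes of other kinds such as unc-52, had 25 regions (15.2 per 100 kb) in 7 genes. Among these were the long genes unc-22, unc-89, unc-52 and ttn-1. Zinc finger and bZIP genes had 9 (18.2), transcription machinery 12 (14.8), C-type lectins 36 (14.3), tubulins 3 (13.96), and synaptic and neurotransmitter genes 28 (12.6). UDP-glucuronosyltransferases had 13 (12.2), Q/N-rich genes 12 (11.5), homeobox genes 10 (11.2), cell cycle and replication genes 6 (10.2), cytochrome P450 genes 11 (10.1) and tRNA synthetases 5 (7.51). egl-3, the convertase that cuts neuropeptide precursors, had 89.8 with 51.6 and 38.1 in the replicates and was in the thresholded list together with cat-2 and mdt-26.

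The 3005 regions lay in 2650 genes, or 13.3% of 19985. Of these, 268 genes held 2 or more regions and 54 held 3 or more, and regions of the same gene share their surroundings and are not independent. Long genes held them more often, at 6.68% of genes with under 1000 bp of coding sequence and 73.3% of those with 8000 bp or more. Per coding length the difference was small, with 11.3 regions per 100 kb in the first class and 13.96 in the second.

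The most regions in a gene were 7, in unc-22, the giant muscle kinase twitchin, and in vab-10. The unc-22 regions had signals from 50.8 to 85.5 along 21474 coding bases, and the vab-10 regions from 51.5 to 82.9 along 15177. eel-1, a HECT ubiquitin ligase, and unc-89, the muscle protein obscurin, held 6 each. fasn-1, din-1, a nuclear receptor corepressor, gcn-1, a regulator of translation, ret-1, the reticulon, and dig-1, a giant matrix protein, held 5 each. The din-1 regions had signals from 62.4 to 87.004 and the fasn-1 regions from 51.9 to 98.6. pod-2, which encodes acetyl-CoA carboxylase and so acts just before fasn-1 in fatty acid synthesis, held 4, from 53.7 to 75.3.

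Length alone did not order these genes. ttn-1, the titin-like gene and the longest here with 45564 coding bases, held 4 strong regions, or 0.878 per 10 kb, and 25 weaker ones. fasn-1 held 5 strong regions and 1 weaker one in 7839 coding bases, or 6.38 per 10 kb. icl-1 held 3 strong regions and no weaker one in 2904 coding bases, or 10.3 per 10 kb. A weaker entry that overlapped a strong one was merged with it and not counted as weaker. The numbers of strong and weaker regions in a gene are therefore not independent.

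Along the chromosomes, strong coding regions were denser on autosome arms than in the middle. Taking the first and last of 3 equal parts as arms, 68.9% (67.1 to 70.7) of autosomal regions lay on arms, beside 60.7% (59.7 to 61.6) of weaker coding regions and 74.3% (72.8 to 75.7) of strong regions outside coding sequence. On chromosome II there were 114 and 159 regions per Mb of coding sequence on the arms and 74.5 in the middle. On chromosome I the values were 161 and 142 against 85.0. The middle part was the lowest on each of the 5 autosomes. On X the values were 122, 105 and 103.6 from first to last part, so the middle did not stand apart there. Over whole chromosomes, III had 141 regions per Mb of coding sequence and X had 110.

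**Figure D5:**
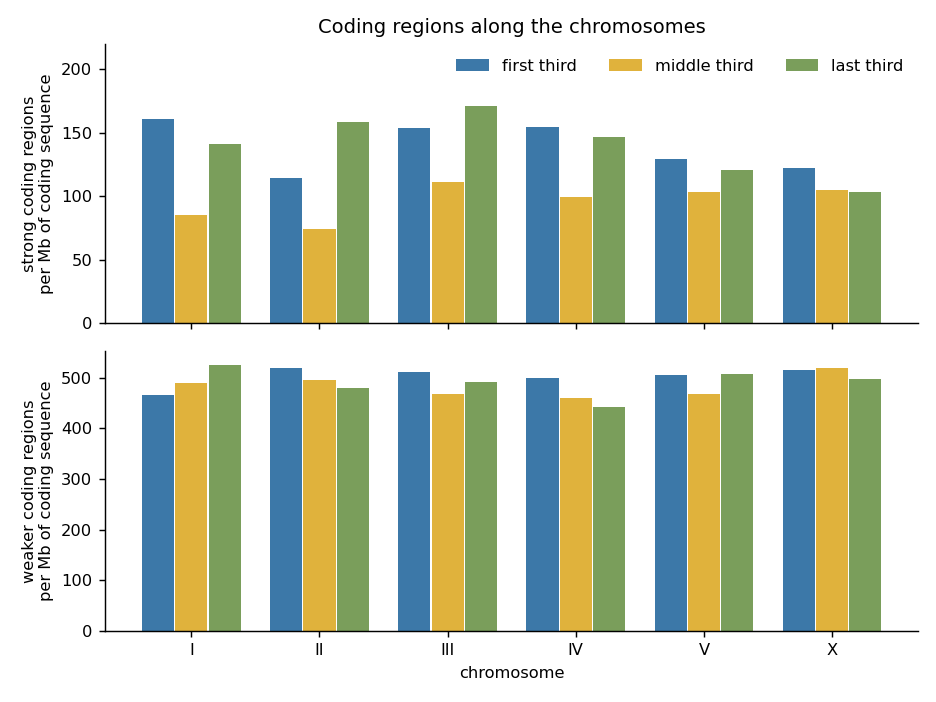
Strong coding regions (upper panel) and weaker coding regions (lower panel) per Mb of coding sequence in 3 equal parts of each chromosome. The middle part is the lowest on every autosome for strong regions, at 74.5 on II and 85.0 on I, and the weaker regions lie between 442 and 526 in every part.

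Short words were searched on both strands in 100 bp around the summits. In strong coding regions AGCGCG was in 1.10%, the word CGCGCA in 1.13% and the word CCGCGC in 0.932%. These words can overlap each other, and at least 1 of them was in 2.596% (2.06 to 3.23) of strong coding regions, 1.87% (1.64 to 2.13) of weaker ones and 6.76% (6.02 to 7.57) of strong regions outside coding sequence. CATATA was in 2.36%, 2.72% and 4.75%, and GAGAGA in 5.16%, 5.16% and 9.35% of the same groups. For these words strong coding regions were closer to weaker coding regions than to strong regions elsewhere.

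The palindrome CACGTG, the core of the E-box read by many basic helix-loop-helix factors, was in 3.73% (3.08 to 4.47) of strong coding regions, 2.65% (2.37 to 2.95) of weaker ones and 2.23% (1.80 to 2.73) of strong regions elsewhere. The wider pattern CANNTG, which contains it, was in 45.96%, 44.6% and 32.4%. The GATA word TGATAA was in 6.72%, 8.22% and 7.19%, and TTTCTG in 9.15%, 10.4% and 12.1%. Of the regions whose sequence is shown, the 3 strongest with CACGTG within 30 bases of the summit show where it lay, with capitals marking the word.
din-1, chrII:11631778-11631838, minus strand: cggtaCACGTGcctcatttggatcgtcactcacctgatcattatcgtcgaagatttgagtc
txt-3, chrIV:4964165-4964225, plus strand: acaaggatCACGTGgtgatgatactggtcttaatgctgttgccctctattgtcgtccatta
glna-2, chrII:8010872-8010932, plus strand: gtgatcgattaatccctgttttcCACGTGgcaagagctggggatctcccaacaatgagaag

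These regions had signals of 87.004 in din-1, 79.1 in txt-3 and 78.7 in glna-2, a glutaminase gene. The word lay off the centre in din-1 and txt-3 and next to it in glna-2. A match of these letters is a description of the window and not a site.

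Small noncoding genes lay within 100 bp of few regions. tRNA genes were near 12 regions (0.399%), snoRNA genes near 14 (0.466%), miRNA genes near 3 and snRNA genes near 2. In strong regions outside coding sequence 1.63% were near a tRNA gene and 1.27% near a snoRNA gene. The ztf-1 gene itself held none of the regions. No ranked region lay within 5000 bp of the coding part of ztf-1 on chromosome III, and the stretch without one was 44138 bp long, at place 7 by length among 43343 such stretches, whose median was 807 bp. The cause was not tested.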

How the data were processed

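The regions, words and gene lists were chosen with earlier results of these data known. The authors deposited 8 peak lists on ce11, a ranked and a thresholded list for each of 4 comparisons by IDR, with the aligner and peak caller not given in the sources used here. The deposited signal of each entry, its −log10 q-value and its −log10 IDR are the authors' own values and were used to describe and rank regions within a list. No read counts were in the files, so depth is unknown.

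Entries were merged where they overlapped by 1 bp or more. Strong regions were merged from entries with a signal of 50 or more, weaker coding regions are regions merged from the whole list whose highest signal was under 50, and ranges of signal were counted over that whole list. Gene models came from Ensembl release 115 (WBcel235), sequence from RefSeq, and coordinates are 1-based. No sequence from chromosome I is printed. Summit windows of 100 bp gave GC content. Densities used the longest coding transcript of each gene, and gene lists were drawn up by symbol, so the chemoreceptor list may hold a few other genes named with sr and a letter. A region was counted in a list or replicate where it overlapped an entry by 1 bp or more. No test was run over regions, which are not replicates, and the 95% exact Clopper-Pearson interval given with a share covers counting error only. Genes were named by rule, which took the hosts of the 20 strongest regions, regions in a single replicate's thresholded list, genes with 3 or more regions, up to 4 of each gene list and 3 regions on each side of the threshold. The hosts of the printed E-box windows, pck-1, pyc-1, rab-11.1 and W02H5.2 were named after their values were seen. Merging and lookup were tested on simulated intervals. Python 3.11.15, pandas 2.3.3, numpy 2.4.6, scipy 1.17.1 and matplotlib 3.10.9 were used. Alternatives were other thresholds, lists, windows and gene models, and each replicate left out.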

Additional observations from a re-analysis of the deposited data

How the results depend on the processing

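With a signal threshold of 40 there were 5759 strong coding regions, of which 0.886% were in the thresholded list, 52.2% overlapped an entry of both replicates and 66.5% of autosomal ones lay on arms, and 40.4% of strong regions were coding. With a threshold of 60 there were 1320, with 3.79%, 76.0% and 72.5% for the same shares. Regions of the thresholded list alone gave 51 coding regions, 23.6% of that list, with 98.0% in both replicates and 77.3% on arms. Requiring that 50% of the interval be coding gave 39.6% of strong regions, with 18.1% near a start. The share near a start was 9.55% within 250 bp, 38.5% within 1000 bp and 26.9% with the starts of all transcripts. Arms taken as the first and last of 4 parts held 50.1%. The gene lists held 368 regions in all, 174 at a threshold of 60, 732 at 40, and 241 among regions with an entry in both replicates, an alternative chosen after seeing the data. Any of the 3 CG words lay in 4.53% of 200 bp windows.

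With a single replicate in place of the compared list, the number of coding regions ranged from 23 to 152, the coding share from 19.7% to 36.5%, the share near a start from 17.8% to 34.8%, the share in the thresholded list from 21.7% to 60.9% and the share on arms from 67.2% to 78.9%. The lower number, without replicate 1, was 23, and without replicate 2 it was 152, so the number and these shares depend on which library is kept. The cause was not tested. The share in both replicates has no value with 1 replicate left, and the share in the thresholded list has none when that list itself is used. No paired analysis was possible because there was 1 group and no comparison between groups. The pooled list's values stayed within the spread or interval of the main values. The mean GC content, 45.4% in the main setting, was 49.3% without replicate 1, 47.5% without replicate 2 and 49.6% for the thresholded list. With the other alternatives it lay between 44.3% and 46.2%. The SD over regions, 7.197, covers all these means, but it also covers the 42.3% of weaker coding regions.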
